A study of Homo sapiens with 9 samples.

Results

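The mRNAs of 10 enzymes that extend or consume RNA 3′ tails were examined for recovery with the CCR4-NOT deadenylase: the terminal nucleotidyltransferases TENT2, TENT4A, TENT4B, TENT5A, TENT5B, TENT5C, TUT1, TUT4 and TUT7, and the exonuclease DIS3L2. They were picked by gene symbol, and each symbol matched 1 row among the 30956 genes of the deposited table. The cells were HEK293T, a human embryonic kidney line, and RNA labelled as cytoplasmic was depleted of ribosomal RNA and sequenced. In the RNA immunoprecipitation (RIP), RNA was recovered through a V5-tagged CNOT7, a nuclease subunit of CCR4-NOT with a substitution that impairs catalysis. The labels give 3 RIP libraries, 3 inputs of cells cultured with doxycycline (3 µg/mL, 24 h) and 3 inputs of cells cultured without it. Whether the RIP cells received doxycycline is not stated in the labels.

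The table held 3 RIP columns and 3 input columns. The names of the input columns carry the numbers 1 to 3 but do not say with or without doxycycline, so the columns are called inputs here and are tied to neither kind. The mean of the 3 libraries without a column was derived from the deposited mean over all 9 libraries, with no SD. For CNOT7, the bait, this mean was 4240 normalized counts, against 24412, 24627 and 25361 in input columns 1, 2 and 3. The 3 columns thus resembled each other, as columns of a single kind would, but their kind was not assigned from these values. RNA that sticks to the beads or antibody was not measured here with an untagged control, and no background was taken off the RIP values. A higher value in RIP is therefore a higher share of the RIP library than of the input library, relative to other genes.

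Terminal nucleotidyltransferases add nucleotides to RNA 3′ ends without a template. Those that lengthen the poly(A) tails of mRNAs act opposite to deadenylases such as CCR4-NOT. TENT4A and TENT4B make poly(A) tails that hold occasional guanosines, which slow deadenylation, and the TENT5 enzymes and TENT2 (also called GLD2) are poly(A) polymerases that act on selected mRNAs. TUT4 and TUT7 add uridines to mRNAs whose tails have become short and to the precursors of let-7 microRNAs, TUT1 uridylates U6 snRNA, and DIS3L2 degrades RNA that carries uridine tails.

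The RIP columns stood for 37140622 to 40764899 reads in genes and the input columns for 37290120 to 38918356. RIP replicate 2 had no read for 14786 genes, against 6720 and 6398 in the other RIP libraries and 10056 to 12079 in the inputs. Mitochondrially encoded RNA took 0.93% to 1.12% of RIP reads and 18.6% to 26.6% of input reads. Scaling by total counts in place of the authors' size factors raised every RIP minus input difference by 0.49 on the log2 scale, and by 0.14 when mitochondrially encoded genes were left out of the totals. The median of all 16765 genes tested was -0.043 with the authors' scaling, and it was 0.445 with total-count scaling. Markers of the line were read in all 6 libraries, with 9425 to 10930 normalized counts of VIM in RIP and 27560 to 31430 in input, and 1134 to 1355 of PAX2 in RIP and 556 to 668 in input. The hepatocyte marker ALB had no read in the inputs and 0 to 10.8 normalized counts in RIP. MYOD1, listed as a marker of muscle, had 200 to 266 normalized counts in RIP and 48.0 to 105 in input, and COL1A1, of fibroblasts, had 322 to 535 in RIP and 375 to 545 in input.

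Most mRNAs of the family were recovered above input. Of the 10 genes 8 rose and 0 fell in RIP at an adjusted p under 0.05 (limma on log2 normalized counts, Benjamini-Hochberg over all genes tested), whereas 22.4% of all genes tested rose and 21.2% fell. At least 2-fold increases were called for 5 of the 10, all among the 6 TENT genes, against 11.4% of all genes tested. Such decreases were called for 0, against 10.6%. For 9 of the 10, each RIP library lay above each input, a pattern shown by 27.4% of all genes tested, and for 0 of the 10 each RIP library lay below each input, as it did for 27.3%. The authors' deposited table (DESeq2) also calls 8 of the 10 higher and 0 lower, against 20.6% and 19.9% of its genes, and with total-count scaling 9 of the 10 rose, against 36.7% of all genes tested. All 10 passed the filter on low counts, a mean of at least 10 normalized counts over the 6 libraries, and their median log2 difference was 0.99. The genes were chosen with earlier results of these data known, so these shares describe the genes and are not a test of the family.

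**Figure D1:**
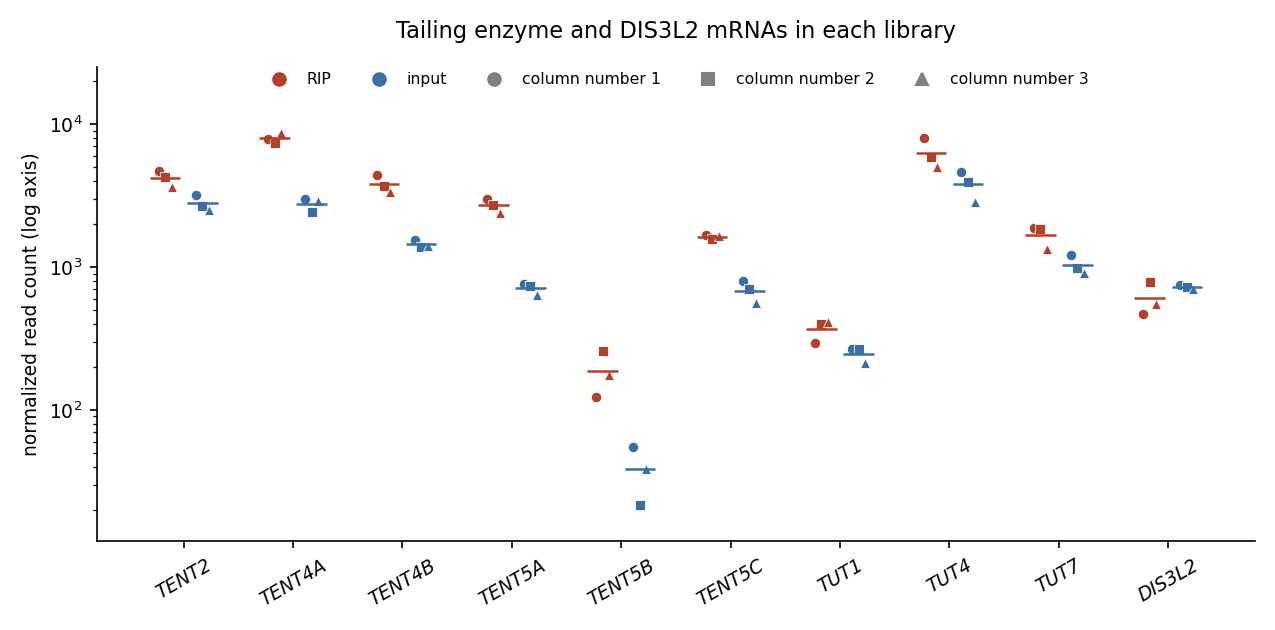
Normalized read counts (log axis) of the 10 mRNAs in the 3 RIP libraries (red, left of each gene) and the 3 input columns (blue, right), with symbols for the column number and bars at the group means. RIP and input points are separate for 9 genes and overlap for DIS3L2, where the RIP values run from 467 to 789 and the inputs from 699.9 to 743.

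TENT4A (ENSG00000112941, chromosome 5, 6713432 to 6757044, GRCh38.p14), which adds mixed tails of adenosines and guanosines, had 7942, 7334 and 8618 normalized counts in RIP replicates 1, 2 and 3, against 2976, 2424 and 2915 in inputs 1, 2 and 3. The groups were far apart relative to their spread: means were 7965 ± 643 in RIP and 2772 ± 302 in input (SD, n = 3 each). The log2 difference was 1.53 (SE 0.13, limma adjusted p = 2.8e-06), a 2.88-fold higher level with a 95% interval of 2.38 to 3.49. This placed TENT4A at percentile 91.6 of the log2 differences of all genes tested.

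TENT4B (ENSG00000121274, chromosome 16, 50152911 to 50235310), the paralogue with the same activity, also known for tailing nuclear RNAs marked for decay, had 4421, 3676 and 3367 normalized counts in RIP and 1558, 1390 and 1410 in input. The lowest RIP library was more than the highest input, and the inputs differed among themselves by 1.12-fold at most. In log2 terms RIP exceeded input by 1.39 (SE 0.14, limma adjusted p = 1.04e-05), or 2.62-fold with an interval of 2.12 to 3.23. RIP replicate 1 was the highest of the RIP libraries for TENT4B, and replicate 3 was the highest for TENT4A.

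TENT5A (ENSG00000112773, chromosome 6, 81745730 to 81752681), a cytoplasmic poly(A) polymerase linked in mice to the mRNAs of bone collagen, had 3018, 2715 and 2378 normalized counts in RIP, against 764, 733 and 641 in input. No RIP library came near an input, and within each group the values differed by at most 1.27-fold. The log2 difference of 1.92 (SE 0.16, limma adjusted p = 2.39e-06) corresponds to 3.78-fold, with an interval of 2.99 to 4.79, and lay at percentile 95.3 of all genes tested. The authors' deposited table gives TENT5A a log2 fold of 1.92 (SE 0.16, DESeq2).

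TENT5C (ENSG00000183508, chromosome 1, 117606048 to 117628389), a poly(A) polymerase known from plasma cells, where it acts on immunoglobulin mRNAs, had 1675, 1575 and 1645 normalized counts in RIP and 793, 700.0 and 557 in input. The RIP libraries were the tightest of any of the 10 genes, with 1632 ± 51.2 (SD, n = 3), and the inputs were at 683 ± 119 (SD, n = 3). The log2 difference was 1.27 (SE 0.17, limma adjusted p = 9.81e-05), or 2.41-fold with an interval of 1.85 to 3.14.

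TENT5B (ENSG00000158246, chromosome 1, 27005020 to 27012850), the gene with the fewest reads of the 10, had 123, 259 and 175 normalized counts in RIP, against 55.3, 21.7 and 38.4 in input. These values stand for 149 to 347 reads in RIP and 19 to 53 reads in input, so counting error is larger here than for the others. The groups did not overlap, but replicates differed by 2.1-fold in RIP and 2.55-fold in input. Its log2 difference, 2.27, was the highest of the 10 and also the least precise (SE 0.57, limma adjusted p = 0.00594), with a fold of 4.83 and an interval of 2.06 to 11.4. RIP replicate 2 gave the highest RIP value, and without that library the log2 difference was 2.002 (limma adjusted p = 0.00607).

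TENT2 (ENSG00000164329, chromosome 5, 79612441 to 79688246), the cytoplasmic poly(A) polymerase that acts with CPEB proteins, rose less, with 4722, 4277 and 3639 normalized counts in RIP against 3195, 2695 and 2494 in input. All RIP libraries lay above all inputs, by a narrow margin between RIP replicate 3 and input 1. TENT2 differed by 0.59 on the log2 scale (SE 0.14, limma adjusted p = 0.00487), or 1.51-fold with an interval of 1.22 to 1.87. The upper end of that interval lies below the lower end of the intervals of TENT4A, TENT4B, TENT5A and TENT5B, but these differences between genes were not tested.

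Against the input columns, the mRNAs of the uridylating enzymes had smaller estimates than those of the TENT4 and TENT5 enzymes. This contrast between genes was not tested. Over the derived mean of the libraries without a column it did not hold in full, since TUT7 stood at 1.44, above TENT4A at 1.39, with TUT4 at 1.24. Those libraries also differed from the input columns in CNOT7, the bait, with a derived 4240 against 24800 normalized counts. Ratios over them therefore include differences between the inputs. TUT4 (ENSG00000134744, chromosome 1, 52423275 to 52553463) had 8018, 5856 and 4981 normalized counts in RIP, against 4663, 3950 and 2840 in input. The groups did not overlap, though they came close, and column 1 was the highest and column 3 the lowest in each group. RIP exceeded input by 0.72 on the log2 scale (SE 0.20, limma adjusted p = 0.0114), or 1.65-fold with an interval of 1.22 to 2.23. When genes with low counts were kept in the fit, the same difference had an adjusted p (limma) of 0.161.

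TUT7 (ENSG00000083223, chromosome 9, 86287733 to 86354410), which shares its substrates with TUT4, had 1866, 1852 and 1332 normalized counts in RIP and 1216, 991 and 910 in input. RIP replicate 3 stood below the other RIP libraries and only slightly above input 1. The log2 difference was 0.69 (SE 0.18, limma adjusted p = 0.00868), or 1.61-fold with an interval of 1.22 to 2.13. When genes with low counts were kept in the fit, its adjusted p (limma) was 0.0692.

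TUT1 (ENSG00000149016, chromosome 11, 62575052 to 62591523), the nuclear enzyme that uridylates U6 snRNA, did not pass the test. It had 293, 399 and 415 normalized counts in RIP, against 265, 265 and 213 in input, so that each RIP library lay above each input but RIP replicate 1 only just. The log2 difference was 0.57 (SE 0.28, limma adjusted p = 0.129), and its interval of 0.97-fold to 2.26-fold holds both no difference and the size seen for TUT4 and TUT7. With total-count scaling TUT1 was at 1.06 (limma adjusted p = 0.00929). When mitochondrially encoded genes were left out of the totals, it was at 0.70 (limma adjusted p = 0.0669). The authors' deposited table gives TUT1 an adjusted p of 0.0607 (DESeq2).

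DIS3L2 (ENSG00000144535, chromosome 2, 231961713 to 232344350), the nuclease that removes uridylated RNA, was the only one of the 10 with a difference below 0. It had 467, 789 and 553 normalized counts in RIP and 743, 719 and 699.9 in input. The inputs agreed closely, at 721 ± 21.7 (SD, n = 3), whereas RIP replicate 2 lay above all inputs and the other RIP libraries below them. The log2 difference of -0.29 (SE 0.22, limma adjusted p = 0.319) did not pass the test, with an interval of 0.58-fold to 1.15-fold. It became 0.20 (limma adjusted p = 0.51) with total-count scaling. When mitochondrially encoded genes were left out of the totals, it was -0.155 (limma adjusted p = 0.615). Without RIP replicate 2, the library with the most genes at 0, the difference with the authors' scaling was -0.50 and passed narrowly (limma adjusted p = 0.0497).

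**Figure D2:**
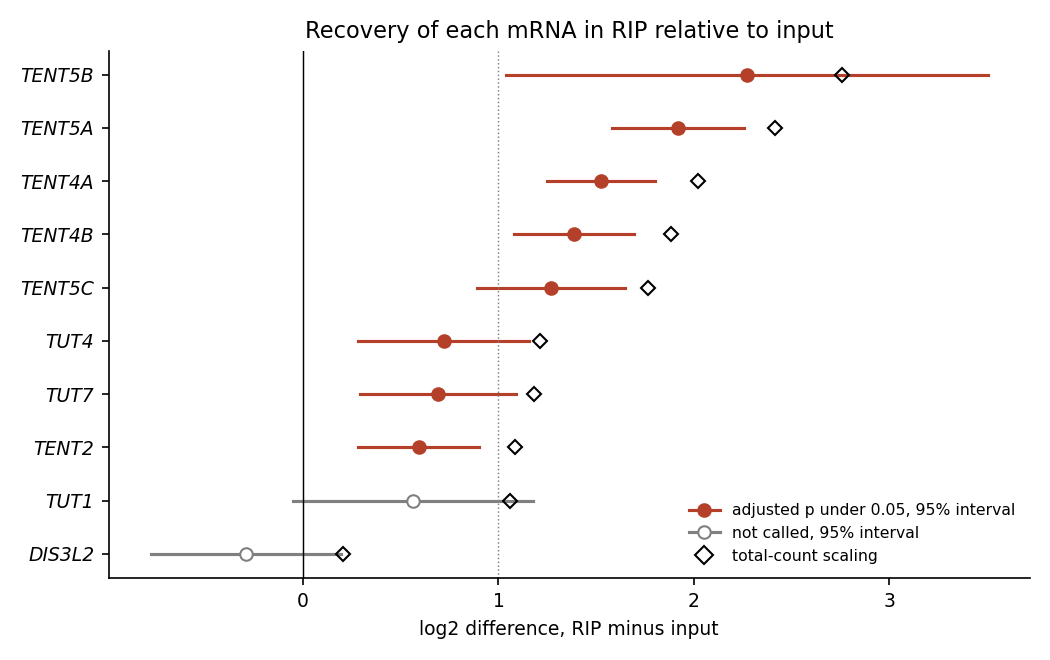
Log2 difference of RIP minus input for each of the 10 mRNAs (points) with its 95% interval (lines), from limma with the authors' scaling, and the value with total-count scaling (diamonds). TENT5B and TENT5A are at the top with 2.27 and 1.92, the TENT4 genes and TENT5C lie between 1.27 and 1.53, TUT4, TUT7 and TENT2 between 0.59 and 0.72, and the intervals of TUT1 and DIS3L2 cross 0.

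In the order of differences, TENT5B, TENT5A, TENT4A, TENT4B, TENT5C, TUT4, TUT7, TENT2, TUT1 and DIS3L2, the 95% intervals of each gene and the next overlap throughout. Against the input columns, a gap in the estimates lies between TENT5C at 1.27 and TUT4 at 0.72, which is absent over the libraries without a column. The interval of TENT4A (1.25 to 1.80) and that of TENT5A (1.58 to 2.26) lie above the intervals of TUT4 (0.28 to 1.16) and TUT7 (0.29 to 1.09). That of TENT4B (1.08 to 1.69) overlaps the ends of both.

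Paralogues were compared through the log2 ratio of their normalized counts within each library, which no scaling of libraries changes beyond the pseudocount. TENT5A over TENT5C was 0.85, 0.79 and 0.53 in RIP, against -0.054, 0.067 and 0.20 in input. The groups did not overlap, and the RIP minus input difference was 0.65 (SE 0.12). The exact two-sided permutation test over 6 libraries gave p = 0.10, the smallest that 3 against 3 allows, and 0.30 adjusted over the 3 pairs. The order of the pair also depends on the inputs: over the derived mean of the libraries without a column, the log2 ratio of RIP was 1.77 for TENT5A and 2.36 for TENT5C. TENT4A over TENT4B was 0.85, 0.996 and 1.36 in RIP and 0.93, 0.80 and 1.05 in input, which overlap, and the difference was 0.14 (SE 0.17, exact permutation p = 0.60, 0.90 adjusted). TUT4 over TUT7 was 2.10, 1.66 and 1.90 in RIP and 1.94, 1.99 and 1.64 in input, with a difference of 0.031 (SE 0.17, exact permutation p = 0.90, before and after adjustment). With a smallest p of 0.10, none of the 3 pairs could pass at 0.05, so the test does not decide whether paralogues differ. With 3 libraries a group the SEs do not show that paralogues were recovered alike.

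**Figure D3:**
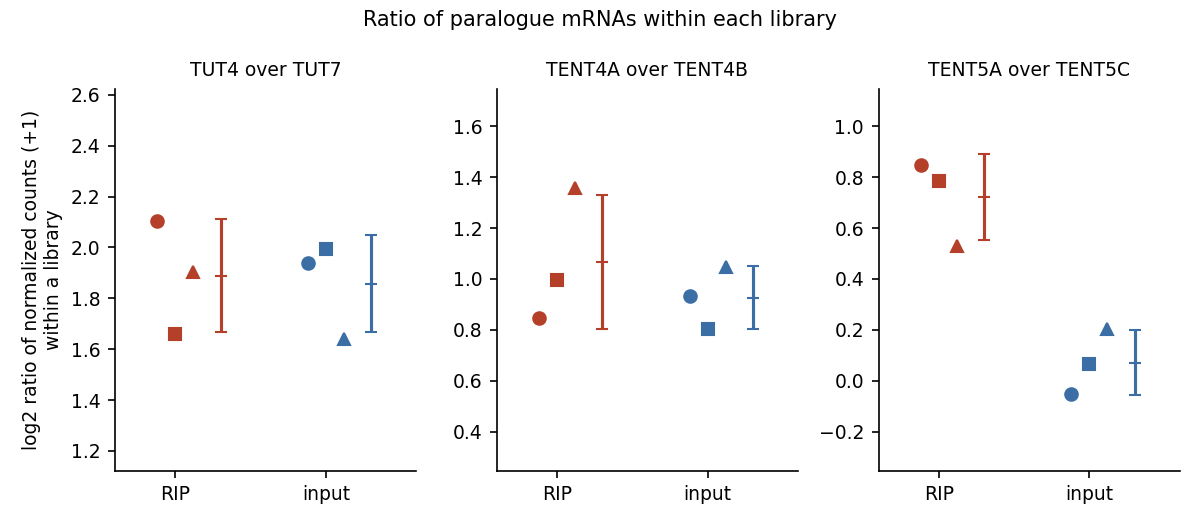
Log2 ratio of the normalized counts (plus 1) of 2 paralogues within each library, for RIP (red, left) and input (blue, right), with symbols for the column number as in the plot of counts by library, and mean ± SD beside them. TENT5A over TENT5C is separate between RIP (0.53 to 0.85) and input (-0.054 to 0.20), while the ratios of the other pairs overlap.

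The inputs chosen as the base matter for some of these genes. The bait, CNOT7, had 86982 ± 11495 normalized counts in RIP and 24800 ± 498 in the input columns (SD, n = 3 each), against a derived 4240 in the libraries without a column, so the input columns held 5.85 times as much of it. TENT5B averaged 38.5 normalized counts in the input columns and a derived 6.51 in the other libraries, a ratio of 5.91. TENT5C averaged 683 in the input columns and 318 in the other libraries (ratio 2.15), and TUT7 1039 and 623 (ratio 1.67). TUT4 and TENT2 had ratios of 1.43 and 1.35. TENT4A, TENT4B, TENT5A, TUT1 and DIS3L2 were within 0.825 to 1.11 times the level of the other libraries. These differences between inputs were not tested, since the derived means have no replicates.

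Set against the other libraries, the RIP mean stood at log2 ratios of 4.83 for TENT5B, 2.36 for TENT5C, 1.77 for TENT5A, 1.54 for TENT4B, 1.44 for TUT7, 1.39 for TENT4A, 1.24 for TUT4, 1.03 for TENT2, 0.30 for TUT1 and -0.44 for DIS3L2. The sign of each gene was that seen against the input columns. The order differed: TENT5C stood above TENT5A, and TUT7 above TENT4A. These ratios combine recovery in RIP with the differences between inputs given above, that of the bait among them.

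**Figure D4:**
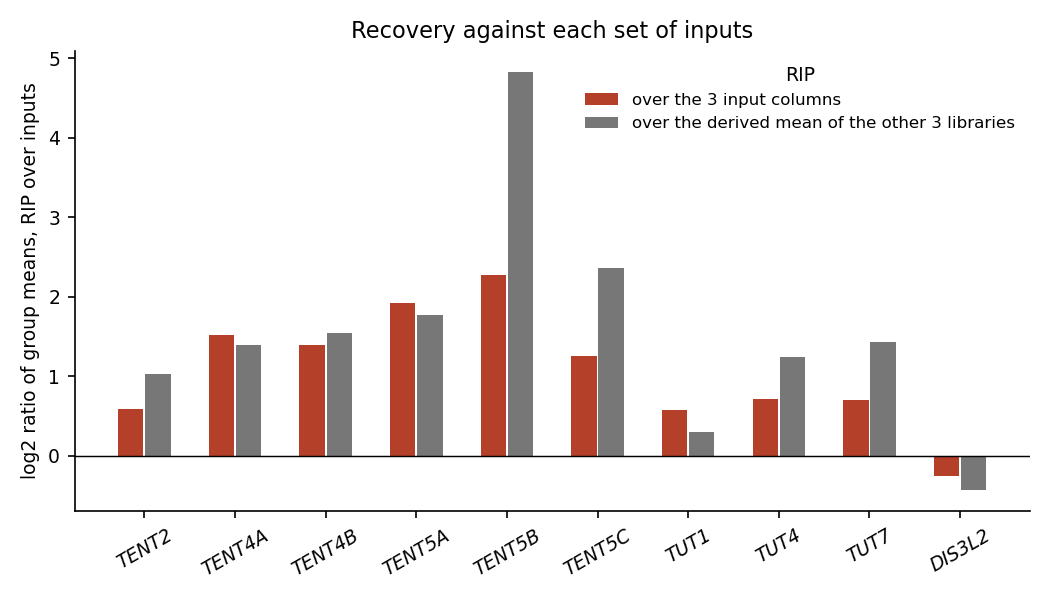
Log2 ratio of the RIP mean over the mean of the 3 input columns (red) and over the derived mean of the 3 libraries without a column (grey) for the 10 mRNAs, with no error bars because the derived means have no replicates. The bars are alike for the TENT4 genes and TENT5A, and differ most for TENT5B (2.27 and 4.83) and TENT5C (1.26 and 2.36).

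Other genes of 3′ end metabolism did not share a direction. Counts for the 4 lists were not tested against all genes tested, of which 22.4% rose and 21.2% fell. Among other poly(A) polymerases, 3 of 5 were tested, and 2 rose and 1 fell. PAPOLG, a nuclear poly(A) polymerase, had 6688 ± 1009 normalized counts in RIP and 3131 ± 600.1 in input (SD, n = 3 each), a log2 difference of 1.10 (limma adjusted p = 0.000129). MTPAP, the polymerase of mitochondria, rose by 0.80 (limma adjusted p = 0.000234). PAPOLA, the main nuclear polymerase, had -0.47 (limma adjusted p = 0.0209), which became 0.024 with total-count scaling and was 0.037 over the derived mean of the other libraries, and it did not pass without RIP replicate 3 (-0.35) or input 1 (-0.34). PAPOLB and TENT5D had at most 7 reads in any library and were not tested.

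Of 14 partners and recruiters of the terminal nucleotidyltransferases 13 had a row and were tested. Of these 7 rose and 2 fell, against 22.4% and 21.2% of all genes tested, with a median log2 difference of 0.59. ZCCHC14, which brings TENT4 enzymes to viral RNAs, had 15496 ± 1955 normalized counts in RIP and 6819 ± 767 in input (SD, n = 3 each), a log2 difference of 1.18 (limma adjusted p = 1.96e-05). CPEB1, CPEB2, CPEB3 and CPEB4, which bind cytoplasmic polyadenylation elements, all rose, by 0.82, 1.47, 1.28 and 1.31. FNDC3B, a membrane protein of the endoplasmic reticulum that binds TENT5 enzymes, rose by 1.11 (limma adjusted p = 7.9e-05), and its relative FNDC3A did not pass at -0.032. PIP5K1A, the lipid kinase that works with TUT1, rose by 0.59. The helicase MOV10, a partner of TUT4 and TUT7 in the control of LINE-1 elements, had -0.94 (limma adjusted p = 0.000147), and the helicase MTREX, which works with TENT4B in the nucleus, had -0.37, smaller in size than the 0.49 that total-count scaling adds. Over the derived mean of the other libraries, the log2 ratios of PIP5K1A and MTREX were 0.034 and 0.20. LIN28B, which recruits TUT4 and TUT7 to let-7 precursors, had 6627 ± 736 normalized counts in RIP and 6217 ± 1213 in input (SD, n = 3 each), and its difference of 0.10 did not pass (limma adjusted p = 0.611).

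Among 11 exonucleases and trimming enzymes, 1 rose, 3 fell and 7 did not pass, with a median log2 difference of -0.12. Of all genes tested 22.4% rose and 21.2% fell, so the 3 that fell do not set this list apart. USB1, which trims U6 snRNA after TUT1 has extended it, had 796 ± 195 normalized counts in RIP and 1831 ± 268 in input (SD, n = 3 each), a log2 difference of -1.22 (limma adjusted p = 0.000372). REXO2 and EXOSC10 had -0.85 and -0.41. With total-count scaling these became -0.36 and 0.087, and neither passed. ERI1, which trims histone mRNA ends, rose by 0.54, but did not pass without RIP replicate 2 (0.39), input 2 (0.57) or input 3 (0.49). DIS3 and DIS3L, relatives of DIS3L2 that work with the exosome, had -0.12 and -0.006 and did not pass.

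The list of the LSM ring, which binds oligouridylated or oligoadenylated ends, and of partners such as XRN1 and SLBP had the lowest median of the 4 lists. Of 10 genes of the LSM ring and its partners, 5 fell, 1 rose and 4 did not pass, whereas 21.2% of all genes tested fell and 22.4% rose. The median log2 difference of the list was -0.45, against -0.043 for all genes tested. With total-count scaling it was 0.043, against 0.445 for all genes tested. LSM7 had 301 ± 99.4 normalized counts in RIP and 1092 ± 77.9 in input (SD, n = 3 each), a log2 difference of -1.90 (limma adjusted p = 6.9e-05). LSM4, LSM3 and LSM2 had -1.78, -1.66 and -1.14, and LSM5 had -0.63. The ring genes LSM1 and LSM6 did not pass, at -0.27 and 0.24. SLBP, which binds the stem-loop of histone mRNAs, rose by 0.87 (limma adjusted p = 0.000262), and XRN1 and PATL1 did not pass at -0.079 and -0.004.

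**Figure D5:**
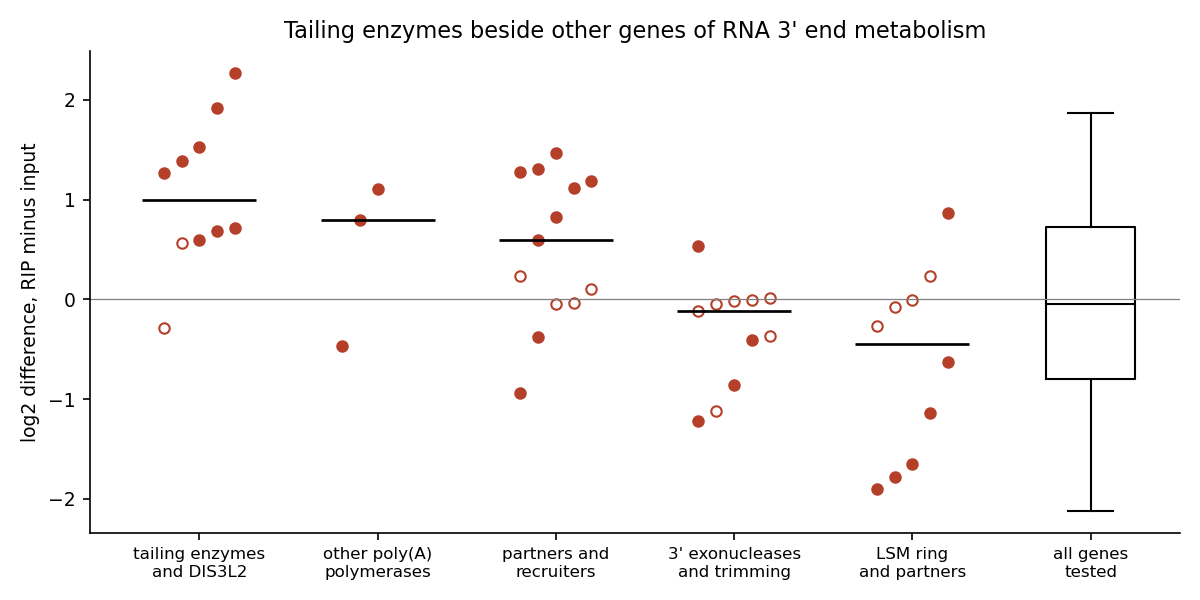
Log2 difference of RIP minus input for the 10 tailing enzyme and DIS3L2 genes and for the tested genes of 4 related lists (filled circles at an adjusted p under 0.05, open circles otherwise, bars at the medians), beside a box of all 16765 genes tested (box at the quartiles, whiskers at the 5th and 95th percentiles). The medians are 0.99 for the 10 genes, 0.80, 0.59, -0.12 and -0.45 for the lists, and -0.043 for all genes tested.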

How the data were processed

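The submitters' processing notes list STAR, featureCounts, DESeq2 and the build GRCh38, with no versions, and a strand setting is not stated. The deposited values are a signal, counts that the authors divided by 1 size factor per library. Whole reads were recovered from them, since 100% of the values in each column were multiples of its smallest value, to within 0.01 of a read. The authors' deposited log2 fold changes and p-values (DESeq2, per the file headers) rest on the same columns: the folds differed from the log2 ratio of RIP and input means by a median of 0.000457 over 19960 genes.

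Values were tested as log2(normalized count + 1) with limma 3.58.1 (lmFit, eBayes with trend) in R 4.3.3, over genes with a mean of at least 10, so low genes' changes are understated. The 10 genes and 4 lists were chosen with earlier results of these data known. Named genes are all 10, the bait and the 4 smallest p of each list. Further list genes were named after their values were seen. They are CPEB1, CPEB3, CPEB4, FNDC3A, PIP5K1A, MTREX, LIN28B, DIS3, DIS3L, LSM1, LSM5, LSM6, SLBP, XRN1, PATL1, PAPOLB and TENT5D. LIN28A had no row. Counts were simulated for 16765 genes, of which 73, 69 and 58 had log2 changes of 0.5, 1 and 2. Of these limma called 5.48%, 40.6% and 65.5%, and 0.0181% of the 16565 unchanged genes. In the real data 22.4% of genes rose and 21.2% fell, many more than were changed in the simulation. The adjusted p was therefore stricter in the simulation, and its shares do not give the sensitivity of the real comparison. Alternatives used edgeR 4.0.16 and DESeq2 1.42.0 on recovered reads, other scalings, pseudocounts and filters, and each library left out.

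Floors of 3 reads were 2.24 to 3.49 normalized counts, for counting error only. The deposited mean covered 9 libraries: 9 times it was below the sum of the 6 columns for 0 genes and equal to it for 5814. Chi-square per degree of freedom between replicates was 29.9 to 82.8, above sampling noise for every pair. The labels do not describe replicates as separate cultures, and p-values then reflect only how these libraries vary, which may be technical. Locations are from RefSeq, GRCh38.p14.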

Additional observations from a re-analysis of the deposited data

How the results depend on the processing

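Of 180 values of the 10 genes under the alternatives, 174 kept their direction and side of the threshold. The exceptions were TUT1 with total-count scaling (1.06, passing), TUT4 (0.72) and TUT7 (0.69) without a filter on low counts and TUT4 at an adjusted p under 0.01 (no longer passing), and DIS3L2 with total-count scaling (0.20, reversed) and without RIP replicate 2 (-0.50, passing). The cause was not tested. With mitochondrially encoded genes left out of the totals, TUT1 (0.70) did not pass and DIS3L2 (-0.155) kept its direction. The number of the 10 that rose was 6 without a filter, 9 with total-count scaling, 7 at an adjusted p under 0.01 and 8 under every other alternative, including edgeR, DESeq2 and the authors' deposited table. Leaving out 1 library at a time gave 8 that rose and 0 to 1 that fell, with log2 differences (limma) of 0.51 to 0.69 for TENT2, 1.43 to 1.58 for TENT4A, 1.28 to 1.47 for TENT4B, 1.84 to 2.01 for TENT5A, 1.92 to 2.58 for TENT5B, 1.13 to 1.38 for TENT5C, 0.46 to 0.72 for TUT1, 0.52 to 0.88 for TUT4, 0.60 to 0.85 for TUT7 and -0.50 to -0.13 for DIS3L2. Total-count scaling called 6155 genes higher and 1655 lower, against 3758 and 3550. With it, the lists had 2 and 0 (other polymerases), 11 and 1 (partners), 4 and 1 (exonucleases) and 3 and 4 (LSM ring) genes higher and lower. PAPOLA and EXOSC10 turned to 0.024 and 0.087. The 1 polymerase that fell was not called (0) without a filter, at an adjusted p under 0.01 or without mitochondrially encoded genes in the total. Of the 2 partners that fell, 1 did so under those alternatives and with TMM scaling. The 1 exonuclease that rose was not called (0) without a filter or at an adjusted p under 0.01. With 1 library left out, 0 to 1 polymerases and 1 to 2 partners fell, and 0 to 1 exonucleases rose. The numbers in the column names were used as a replicate block, which called 4053 genes higher and 3925 lower and changed no call among the 10. Deviations of same-numbered RIP and input columns correlated at 0.26, 0.003 and 0.24 over 12370 genes, so the numbers were not taken as pairs. RIP columns 1 and 3 did correlate best with their own number, while RIP column 2 was unrelated to any input (-0.003 to 0.003). Depth limits TENT5B most, at 19 to 53 input reads.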
